A study of Mus musculus with 6 samples.

Results

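The Rab GTPases measured here were all array features whose gene name in the files was Rab followed by a number and at most one letter and one digit, which selected 57 of 34787 gene names, 82 of 55681 probes and 91 of 59305 spots. By RefSeq, the names Rab1, Rab6 and Rab7l1 in the files are the genes Rab1a, Rab6a and Rab29. The cells were bone marrow–derived macrophages (BMDMs) of wild-type female C57BL/6 mice aged 6 to 8 weeks, grown for 7 days in L929-conditioned medium, in 3 groups of 2 arrays. One group was left untreated, one was stimulated for 4 h with lipopolysaccharide (LPS), the bacterial ligand of TLR4, and one was given 10 µM HBX41,108, a small molecule inhibitor of the deubiquitinase USP7, for 30 min ahead of the same LPS stimulation (LPS+USP7i). The series description gives 100 ng/ml LPS and the sample labels 100 ng/µl, and neither states whether solvent was added to the cells without inhibitor. The age is that of the sample labels, and the methods of the study give an older range for their macrophage donors.

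Rab proteins are small GTPases that give membranes their identity. In the GTP-bound form a Rab sits on the cytosolic face of a particular organelle and recruits effectors that move, tether or fuse vesicles, exchange factors (GEFs) switch it on, GTPase-activating proteins (GAPs) switch it off, and GDP dissociation inhibitors (GDIs) keep the inactive form soluble. In macrophages these proteins are known for their part in phagocytosis, the maturation of phagosomes, antigen handling and the release of cytokines.

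All 6 arrays lay on 1 slide and were read in 1 scan, and of the 2 coordinates of an array on the slide one followed its group and the other its replicate number. The coordinate that followed the group and the treatment cannot be told apart, nor can the coordinate that followed the replicate number and that number. Between 70 and 76 of the 91 Rab spots were well above background on an array, and none was saturated or an outlier. Replicate arrays correlated with an r of 0.991 to 0.996 over 20705 probes, and the median difference between replicates was 0.12 to 0.19 log2 units over the 44 Rab genes detected on all 6 arrays. The 8 macrophage markers examined were above background on every array, and 3 of 4 fibroblast markers (Col1a1, Col3a1 and Pdgfra) on none. Also above background on all 6 arrays were 4 of 5 neutrophil markers and 2 of 5 T and NK cell markers (Cd3e and Cd4). The same held for 2 of 4 B cell, 1 of 4 dendritic cell and 0 of 3 mast cell markers. The summed log2 signal of the macrophage markers was 19.46 to 19.47 in untreated, 19.49 to 19.51 in LPS and 19.16 to 19.25 in LPS+USP7i cells, and single markers moved more. Cd14 rose with LPS by 1.70 (adjusted p = 0.005) and fell with the inhibitor by -1.33 (adjusted p = 0.0176), Fcgr1 fell with the inhibitor by -1.61 (adjusted p = 0.0318), and Itgam fell with LPS by -0.65 (adjusted p = 0.0237). The sum of the neutrophil markers, carried by Elane (11.09 to 11.90), was 12.03 to 12.12 in untreated, 11.97 to 12.02 in LPS and 12.14 to 12.16 in LPS+USP7i cells. None of the 5 genes passed in a comparison, but Mpo measured 8.65 and 6.67 with LPS and 6.49 and 4.85 with the inhibitor, and Camp 4.91 and 6.05 in untreated and 6.68 and 8.40 in LPS cells. The sum of the T and NK cell markers was 10.79 to 11.22, that of B cell markers 8.13 to 10.16 and that of mast cell markers 4.12 to 6.6 over all arrays. The dendritic cell list, carried by Siglech, summed to 15.21 to 15.46 in untreated, 14.61 to 14.65 in LPS and 15.07 to 15.64 in LPS+USP7i cells, and of its genes Zbtb46 was detected on all 4 stimulated arrays and on neither untreated array (adjusted p = 0.00435 with LPS). The part of these markers in the Rab results was not tested.

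Of the 57 Rab genes, 44 were well above background on all 6 arrays, 5 on some (Rab3b, Rab27a, Rab30, Rab39 and Rab44) and 8 on none (Rab9b, Rab17, Rab25, Rab26, Rab27b, Rab36, Rab39b and Rab40b). The genes not above background include Rab17 and Rab25, known from epithelial cells, and Rab27b, known from secretory cells. Rab5b, Rab7, Rab8a, Rab11a and Rab35, which serve trafficking steps that most cells use, were above background everywhere, and their brightest probes did not pass the test in any comparison, though Rab5b, Rab7, Rab8a and Rab11a were higher with LPS when each array was scaled to its 75th percentile (adjusted p 0.0126 to 0.0302). They were chosen after their values were seen, and other genes of general traffic did pass, as given below. The array measures RNA of the whole culture, so fewer cells of a type and less RNA per cell cannot be told apart.

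LPS changed 20 of the 57 Rab genes, which addresses how the RNA of the trafficking machinery differs after TLR4 stimulation. In LPS against untreated cells 9 genes rose (Rab20, Rab30, Rab38, Rab32, Rab12, Rab22a, Rab21, Rab9 and Rab5a) and 11 fell (Rab40c, Rab3a, Rab4a, Rab31, Rab6b, Rab14, Rab43, Rab33a, Rab5c, Rab26 and Rab1b), at an adjusted p value under 0.05 in limma. Among all gene names tested, 7.99% rose and 12.7% fell, and among those found in RefSeq 9.11% rose and 16.7% fell. The shares of the Rab genes were 15.8% and 19.3%, and their median log2 difference was -0.02 beside 0.002 over all names. With dim probes left out, 20.8% of 48 Rab genes rose and 22.9% fell, beside 17.2% and 28.1% of all names. The Rab share of rises was then nearer that of all names, and the share of falls lay below it. With each array scaled to its 75th percentile in place of quantile normalization, the median log2 difference of all probes was 0.507, against 0.005 in the main fit. The split became 18 Rab genes higher and 8 lower (31.6% and 14%, beside 34.9% and 11.6% of all names under that scaling). Under that scaling all 9 rises and 7 of the 11 falls were kept, and Rab14, Rab5c, Rab1b and Rab26 no longer passed.

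**Figure D1:**
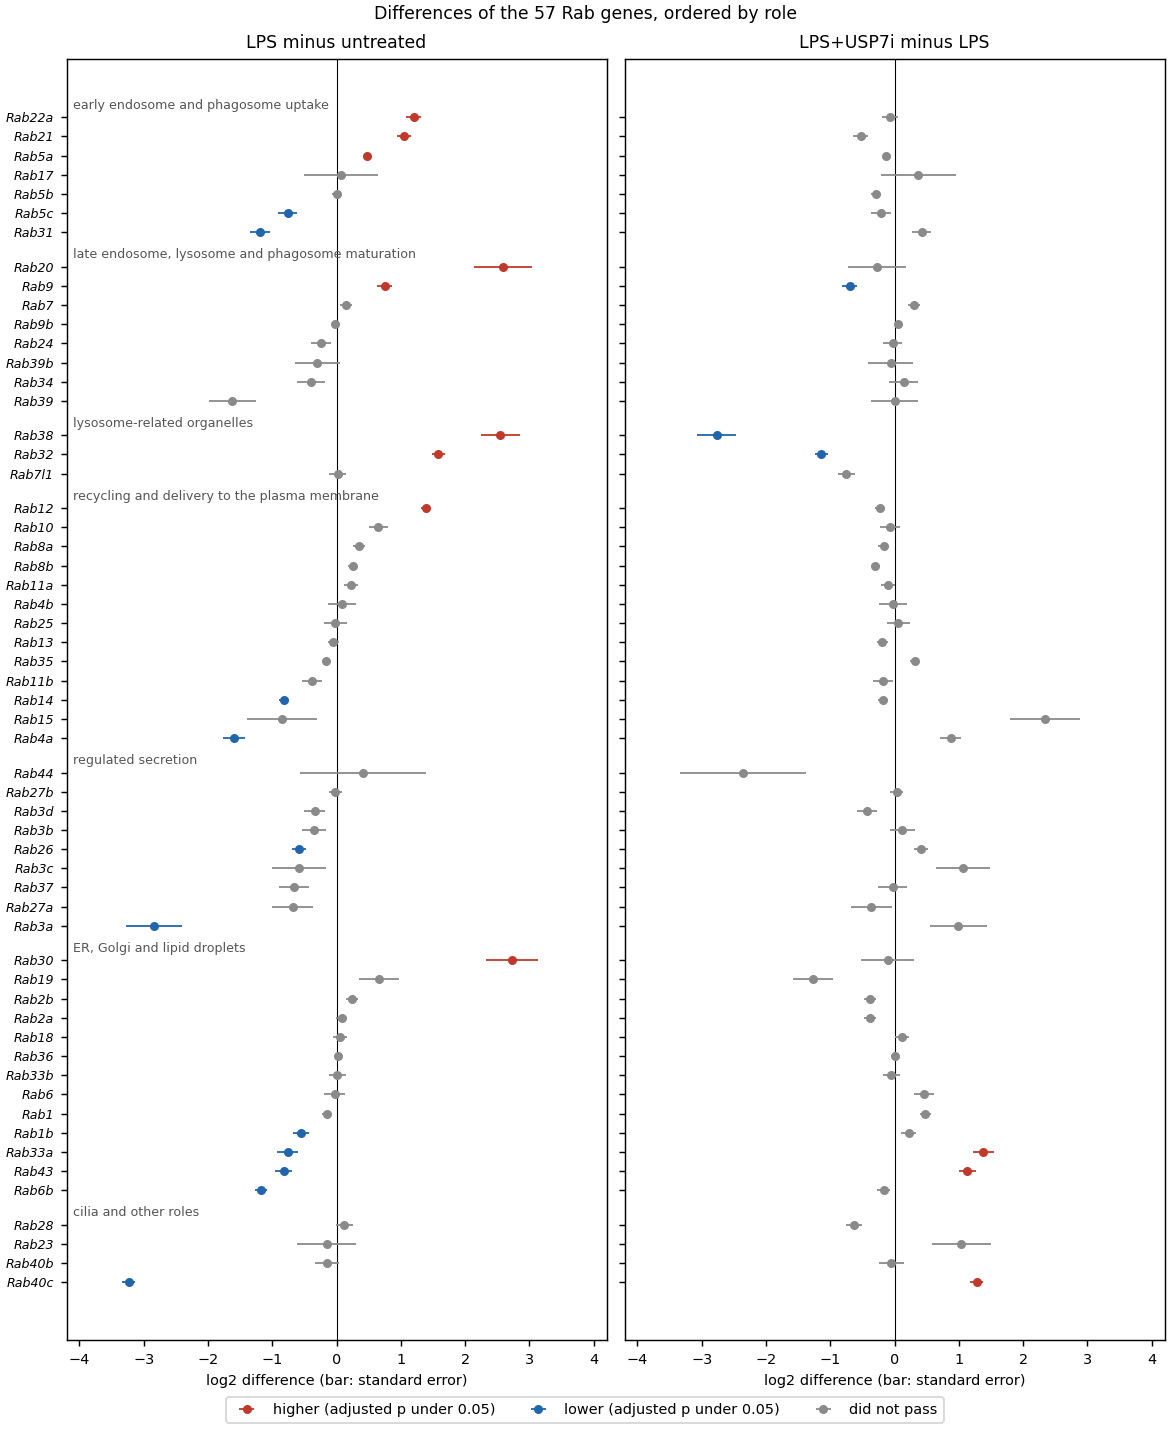
Log2 difference (x axis) of each of the 57 Rab genes for LPS minus untreated (left) and LPS+USP7i minus LPS (right), with genes grouped by role and bars showing the standard error from limma (2 arrays per group). Rises with LPS stand in 5 of the 7 role groups, among them Rab20 at 2.59 and Rab38 at 2.55, both detected on all 6 arrays, and Rab40c has the largest fall with LPS, -3.23. The point of Rab30 rests on untreated arrays below background and is no measure of size.

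The Rab GTPases of lysosome-related organelles gave 2 rises among 3 genes with LPS. Rab32, which acts with Rab38 in building melanosomes and related organelles and is also found on phagosomes, measured 12.40 and 12.28 log2 units in untreated cells, 14.02 and 13.81 in LPS cells and 12.76 and 12.80 in LPS+USP7i cells. Rab32 was thus highest on both LPS arrays, with a log2 difference of 1.58 (SE 0.10, adjusted p = 0.00445), a 2.99-fold rise. Its probe lies at chr10:10265134-10265193 on the minus strand of mm9, the build given in the files. Rab38 measured 6.35 and 6.37 in untreated, 9.09 and 8.71 in LPS and 5.76 and 6.50 in LPS+USP7i cells. The LPS arrays again stood apart, by 2.55 (SE 0.30, adjusted p = 0.0123) from untreated, for the probe at chr7:95639879-95639938 on the plus strand of mm9. A second Rab38 probe, which overlaps the first on the genome, stayed near background throughout, and averaged over both probes the difference was 1.24 with LPS and -1.36 with the inhibitor. Why these probes differ was not tested. Rab7l1 (Rab29), the third gene of the lysosome-related group, differed by 0.02 (SE 0.13, adjusted p = 0.984) between LPS and untreated cells.

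In the late endosome and phagosome group 2 of 8 genes rose and none fell with LPS. Rab20, known for its place on maturing phagosomes and its induction by interferon gamma, measured 7.95 and 7.62 in untreated, 10.78 and 9.96 in LPS and 10.57 and 9.64 in LPS+USP7i cells (probe at chr8:11454183-11454242, minus strand, mm9). Both stimulated groups lay above both untreated arrays, and the LPS difference was 2.59 (SE 0.45, adjusted p = 0.0314), with replicate 1 above replicate 2 in each group. Rab9, which returns receptors from late endosomes to the Golgi, measured 13.04 and 13.01 in untreated, 13.78 and 13.76 in LPS and 12.93 and 13.22 in LPS+USP7i cells. Its LPS difference was 0.75 (SE 0.12, adjusted p = 0.0232), and all 3 Rab9 probes rose, by 0.75 to 0.93. Rab7, the central GTPase of late endosomes and lysosomes, differed by 0.15 (SE 0.09, adjusted p = 0.457). Rab39, next beyond the threshold at an adjusted p of 0.0562, measured 6.46 and 5.48 in untreated and 4.43 and 4.27 in LPS cells, where it was not well above background. Under 75th-percentile scaling Rab39 was called lower (adjusted p = 0.0315).

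The early endosome group held 3 rises and 2 falls among 7 genes. Rab22a, which acts between early and recycling endosomes, went from 10.50 and 10.55 in untreated to 11.84 and 11.61 in LPS cells, a difference of 1.2 (SE 0.12, adjusted p = 0.00901). Rab21, known from integrin endocytosis, went from 8.55 and 8.62 to 9.77 and 9.50, a difference of 1.05 (SE 0.11, adjusted p = 0.00994). The 3 Rab5 genes encode close relatives that drive early endosome fusion, and they are given side by side. Rab5a rose by 0.48 (SE 0.06, adjusted p = 0.013; 12.29 and 12.32 in untreated, 12.80 and 12.75 in LPS cells, each the mean of 10 spots) and its second probe by 0.98, Rab5b measured 12.44 and 12.33 against 12.43 and 12.34, and Rab5c fell from 14.52 and 14.55 to 13.85 and 13.71, by -0.76 (SE 0.15, adjusted p = 0.0414). Scaled to the 75th percentile, Rab5c did not pass (-0.19, adjusted p = 0.487) and Rab5b was higher (0.37, adjusted p = 0.0302), and whether the Rab5 genes differ from each other in their response was not tested. Rab31, which is close to Rab22a in sequence and acts between the Golgi and endosomes, fell from 12.27 and 12.26 to 11.24 and 10.89, by -1.19 (SE 0.15, adjusted p = 0.0146).

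Of 13 genes placed in the group for recycling and delivery to the plasma membrane, Rab12 rose and Rab4a and Rab14 fell with LPS. Rab12 directs the transferrin receptor toward lysosomes, a route that the name of its group does not describe. It measured 11.74 and 11.70 in untreated and 13.14 and 13.07 in LPS cells, a difference of 1.39 (SE 0.08, adjusted p = 0.00383). Rab4a, the GTPase of fast recycling, measured 10.85 and 11.09 in untreated and 9.23 and 9.53 in LPS cells, a difference of -1.59 (SE 0.17, adjusted p = 0.00985), and its second probe fell by -1.37 as well. Rab14, which works between the Golgi and endosomes and is found on phagosomes, went from 14.37 and 14.35 to 13.48 and 13.61, by -0.82 (SE 0.07, adjusted p = 0.00723). Scaled to the 75th percentile, Rab14 differed by -0.27 and did not pass (adjusted p = 0.146). Rab8b, a GTPase of exocytic and ciliary traffic, had one of the brightest Rab probes. It measured 14.56 and 14.42 in untreated and 14.72 and 14.77 in LPS cells (0.25, SE 0.07, adjusted p = 0.11). Under 75th-percentile scaling Rab8a, Rab8b, Rab10, Rab11a and Rab12 of this group were higher and only Rab4a was lower. Of all names 34.9% were higher and 11.6% lower under that scaling.

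The endoplasmic reticulum (ER) and Golgi group had 1 rise and 4 falls among 13 genes. Rab30, a Golgi GTPase, stayed under detection in untreated cells (2.69 and 2.70) but was detected on both LPS arrays (5.87 and 4.99), which makes it at least 2.87-fold higher with LPS on this scale (adjusted p = 0.0218). Its fitted log2 difference was 2.73, but 0.56 after normexp background correction and 1.16 in the deposited values, so its size depends on the processing, and its second probe was above background on no array. A bound of this kind sets the mean of the detected group against a detection limit, which on each array is the dimmest signal that counted as detected. Rab6b, of the Golgi-to-ER route, fell from 8.90 and 8.95 to 7.65 and 7.85 (-1.18, SE 0.10, adjusted p = 0.00626). Rab43, which acts at the Golgi, fell from 13.34 and 13.16 to 12.46 and 12.39 (-0.82, SE 0.13, adjusted p = 0.0267), while its second probe gave 0.39 and did not pass. Rab33a, a relative of the Golgi and autophagy GTPase Rab33b, measured 6.99 and 6.58 against 6.03 and 6.01 (-0.76, SE 0.16), and Rab1b, of ER-to-Golgi transport, 13.77 and 13.93 against 13.20 and 13.41 (-0.55, SE 0.12). Both Rab33a and Rab1b had an adjusted p of 0.0488, just inside the threshold. Scaled to the 75th percentile, Rab1b differed by -0.04 (adjusted p = 0.855). Rab1 (Rab1a), the paralog of Rab1b, measured 14.21 and 14.27 in untreated and 14.10 and 14.09 in LPS cells and did not pass (-0.15, adjusted p = 0.386).

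Among the 57 genes Rab40c had the largest fall. Rab40c carries a SOCS box, a domain that joins proteins to ubiquitin ligases. It measured 12.33 on both untreated arrays, 9.07 and 9.14 in LPS and 10.51 and 10.27 in LPS+USP7i cells, so that the 3 groups were fully separated (probe at chr17:26019159-26019218, minus strand, mm9). The LPS difference was -3.23 (SE 0.10, adjusted p = 0.00251). In the regulated secretion group 2 of 9 genes fell and none rose. Rab3a, best known from synaptic vesicle release, measured 9.22 and 9.19 in untreated cells but 5.75 and 6.98 on the LPS arrays, a difference of -2.84 (SE 0.44, adjusted p = 0.0238). Rab26, of secretory granules, passed at -0.58 (adjusted p = 0.0405) from a probe that no array detected above background, so no fold is given for it. That call is weak, since it was kept in 2 of 12 alternative fits and the difference turned to 0.02 both after normexp background correction and in the deposited values. Without Rab26, 1 of the 9 secretion genes fell.

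**Figure D2:**
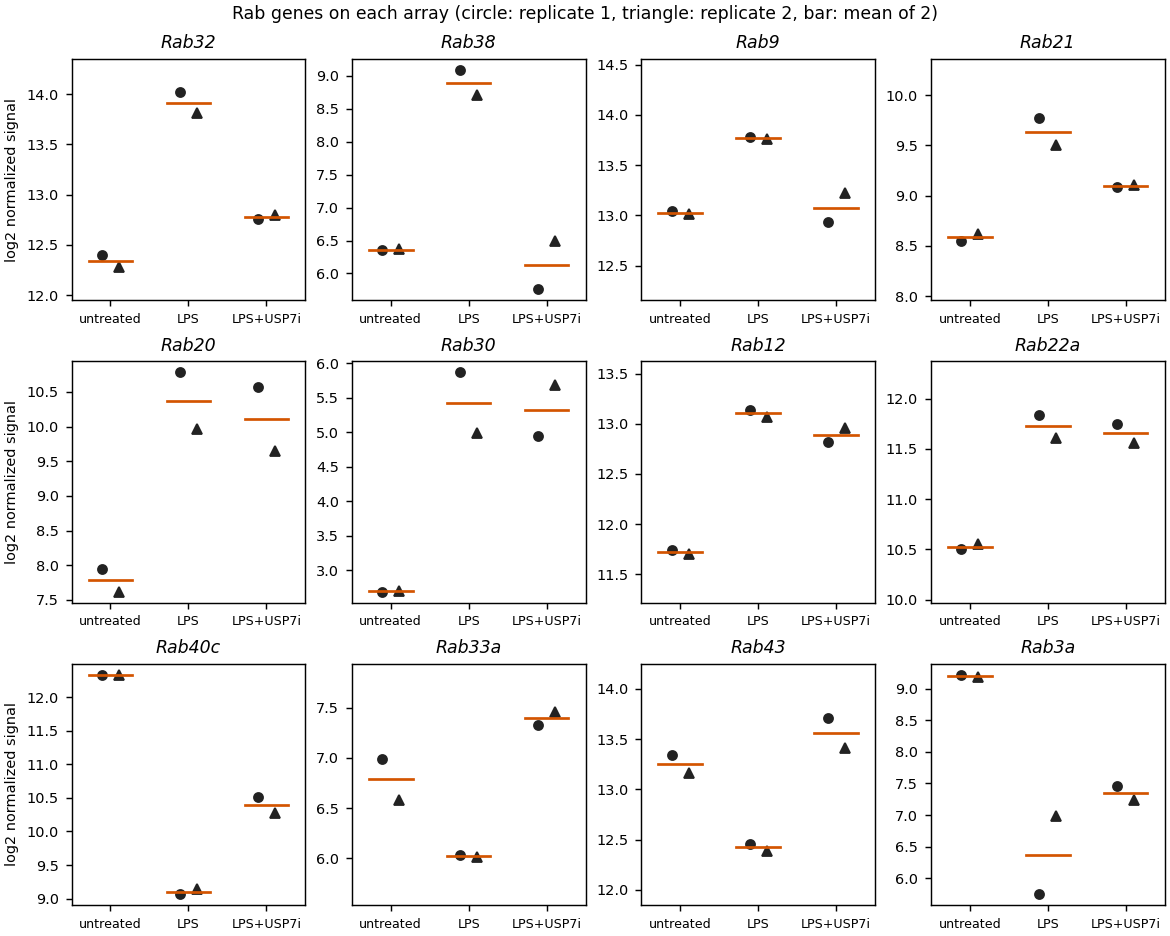
Log2 normalized signal (y axis, own range in each panel) of 12 Rab genes on each of the 2 arrays of the untreated, LPS and LPS+USP7i groups, with bars at the means. In the top row the LPS arrays are highest, in the middle row both stimulated groups lie above untreated, and in the bottom row the LPS arrays are lowest.

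Fewer Rab genes passed with LPS when an array of either group was left out, as did fewer genes of the whole array. A fit without 1 array has 2 residual degrees of freedom in place of 3, and it assumes that the lone array left in a group varies like the others. Without untreated replicate 1, 2 Rab genes were higher and 5 lower (3.51% and 8.77%, beside 3.95% and 5.78% of all names in that fit), and without untreated replicate 2 there were 2 and 4 (beside 3.27% and 4.73%), so that the share of rises came near that of all names. Without LPS replicate 1 there were 4 and 6 (7.02% and 10.5%, beside 5.42% and 5.91%), and without LPS replicate 2 there were 8 and 6 (14% and 10.5%, beside 6.13% and 7.35%). Leaving out either LPS+USP7i array is the same fit as that of the LPS and untreated arrays alone and gave 9 and 7 (15.8% and 12.3%, beside 7.4% and 11.5%). With the replicate number as a block, Rab30, Rab33a, Rab5c and Rab26 no longer passed (adjusted p 0.0504 to 0.0779). Counted over 13 distinct alternative fits, of which 4 leave out an untreated or LPS array, Rab32, Rab12, Rab40c and Rab6b passed in all 13. The calls of Rab9, Rab43, Rab5a, Rab20 and Rab30 were lost in 4 of 13 each, those of Rab3a (adjusted p 0.0623 to 0.114) and Rab38 in 3, that of Rab14 in 2 and that of Rab4a in 1, while those of Rab33a, Rab5c and Rab1b were lost in 7. Rab22a, Rab21 and Rab31 missed the threshold only where an untreated array was left out (adjusted p 0.0574 to 0.083). Rab38 had an adjusted p of 0.0708, 0.0742 and 0.0646 without untreated replicate 1, untreated replicate 2 and LPS replicate 1, and Rab20 had 0.114, 0.145, 0.113 and 0.0633 without each untreated and LPS array in turn.

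Promoter sequence from RefSeq (build GRCm38.p6, 250 bases before to 50 after the start) was matched to 47 of the 57 Rab genes. Both strands were searched for 5 motifs. Of the 27025 genes in the table, 5.14% hold the kappaB consensus in a promoter, 3.99% the core of the interferon-stimulated response element, 8.97% the AP-1 motif TGANTCA, 8.09% the E-box CACGTG and 2.03% the cAMP response element TGACGTCA (by promoter, of 32851, the E-box share is 7.15%). The median GC content was 61.3% over the 59 Rab promoters and 52.7% over all promoters, and its part in these matches was not tested. The E-box was found in Rab20, Rab21 and Rab5a among 7 genes with a promoter that rose with LPS, in 0 of 9 that fell and in 3 of 31 that did not pass (Rab23, Rab24 and Rab27a). The kappaB consensus was in 0 of 7, 0 of 9 and 2 of 31 (Rab15 and Rab28), the interferon-stimulated response element core in 0, 0 and 1 (Rab19), TGANTCA in 0, 0 and 3 (Rab15, Rab34 and Rab39b) and TGACGTCA in 1 (Rab5a), 0 and 1 (Rab25). The E-box was thus 1 of 5 motifs searched, and no test was made of its share. The promoters of the 3 rising genes with an E-box are shown with Rab32 and Rab40c, whose windows hold no match to any of the 5 motifs. Capitals mark the matches, which start 46 bases before the start site in Rab20, 30 in Rab21, and 235 and 95 in Rab5a, where TGACGTCA starts at 28 without overlapping them. The windows lie at chr8:11478591-11478890 (minus strand) for Rab20, chr10:115315542-115315841 (minus) for Rab21, chr17:53478984-53479283 (plus) for Rab5a, chr10:10558158-10558457 (minus) for Rab32 and chr17:25919665-25919964 (minus) for Rab40c. A match is a string of letters and no measure of binding.
Rab20: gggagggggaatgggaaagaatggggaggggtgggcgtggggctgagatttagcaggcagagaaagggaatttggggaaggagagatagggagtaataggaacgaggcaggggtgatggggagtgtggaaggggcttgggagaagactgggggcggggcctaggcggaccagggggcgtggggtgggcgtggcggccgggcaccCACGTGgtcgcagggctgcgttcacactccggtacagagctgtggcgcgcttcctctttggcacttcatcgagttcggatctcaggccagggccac
Rab21: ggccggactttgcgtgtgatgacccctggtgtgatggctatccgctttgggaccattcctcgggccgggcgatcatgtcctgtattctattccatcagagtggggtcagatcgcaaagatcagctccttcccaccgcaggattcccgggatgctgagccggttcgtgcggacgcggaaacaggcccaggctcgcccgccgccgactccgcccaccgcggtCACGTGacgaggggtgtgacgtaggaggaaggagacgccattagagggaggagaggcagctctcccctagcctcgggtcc
Rab5a: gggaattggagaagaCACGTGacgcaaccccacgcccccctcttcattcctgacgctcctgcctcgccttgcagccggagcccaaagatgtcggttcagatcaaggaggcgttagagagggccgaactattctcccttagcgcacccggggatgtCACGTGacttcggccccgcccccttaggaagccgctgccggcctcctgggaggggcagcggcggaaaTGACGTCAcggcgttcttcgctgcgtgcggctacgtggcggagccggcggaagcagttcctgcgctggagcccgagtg
Rab32: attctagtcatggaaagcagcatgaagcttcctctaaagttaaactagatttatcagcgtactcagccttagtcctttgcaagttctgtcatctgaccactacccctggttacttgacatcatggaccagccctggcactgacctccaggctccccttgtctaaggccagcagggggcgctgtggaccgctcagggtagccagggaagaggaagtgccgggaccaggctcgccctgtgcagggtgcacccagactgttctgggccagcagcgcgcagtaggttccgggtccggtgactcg
Rab40c: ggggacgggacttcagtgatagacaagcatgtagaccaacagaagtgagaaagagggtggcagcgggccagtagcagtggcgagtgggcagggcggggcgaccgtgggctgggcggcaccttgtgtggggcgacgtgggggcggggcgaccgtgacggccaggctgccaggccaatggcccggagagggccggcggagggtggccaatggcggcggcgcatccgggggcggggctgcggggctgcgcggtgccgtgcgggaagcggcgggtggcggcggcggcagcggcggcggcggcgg

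The inhibitor changed 6 of the 57 Rab genes. In LPS+USP7i against LPS cells, Rab40c, Rab33a and Rab43 rose and Rab38, Rab32 and Rab9 fell. This comparison asks how the inhibitor alters the LPS-stimulated state, and no group received the inhibitor without LPS. Among all gene names 5.42% rose and 4.29% fell (RefSeq genes 6.86% and 5.24%), and 3 of 57 is 5.26% in each direction, which is near these shares. The median log2 difference of the Rab genes was -0.05 beside 0 over all names. All 6 genes had also changed with LPS, and each moved the opposite way, but the 2 LPS arrays are shared by these comparisons and any deviation of theirs enters them with opposite sign.

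Rab32 measured 12.76 and 12.80 with the inhibitor against 14.02 and 13.81 with LPS alone, a difference of -1.14 (SE 0.10, adjusted p = 0.0176). Rab38 fell by -2.77 (SE 0.30, adjusted p = 0.0222), to 5.76 and 6.50 from 9.09 and 8.71. The third gene of the lysosome-related group, Rab7l1, measured 12.87 and 12.80 with LPS and 11.94 and 12.23 with the inhibitor, and its brighter probe did not pass (-0.75, SE 0.13, adjusted p = 0.0546) whereas its second probe did (-0.93, SE 0.08, adjusted p = 0.0166). Rab9 fell by -0.70 (SE 0.12, adjusted p = 0.046), just inside the threshold, and 2 of its 3 probes passed. Its call was lost in 7 of 13 distinct alternative fits (adjusted p 0.0541 to 0.16), among them 75th-percentile scaling and the deposited values, while its difference stayed between -0.93 and -0.55 in all 13. The call of Rab38 was lost in 4 of 13 (adjusted p 0.0503 to 0.0879) and that of Rab32 in 2. With the replicate number as a block, Rab9 (0.0743), Rab38 (0.0503) and Rab33a (0.0516) missed the threshold. The block gave 2 rises and 2 falls (3.51% each, beside 4.05% and 3.25% of all names). A Rab gene not called in the main fit was thus among the falls.

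Of the rises, Rab40c went from 9.07 and 9.14 to 10.51 and 10.27, by 1.28 (SE 0.10, adjusted p = 0.0153), and stayed below the untreated cells. Rab33a went from 6.03 and 6.01 to 7.33 and 7.46, by 1.38 (SE 0.16, adjusted p = 0.0253). Rab43 went from 12.46 and 12.39 to 13.71 and 13.41, by 1.13 (SE 0.13, adjusted p = 0.0259), and its second probe rose by 1.31 (adjusted p = 0.0375). Over the 13 distinct alternative fits the call of Rab33a was lost in 6 (adjusted p 0.0516 to 0.1), that of Rab43 in 4 (0.0587 to 0.0974) and that of Rab40c in 3 (0.055 to 0.0639), with differences of 0.90 to 1.44, 0.98 to 1.28 and 1.16 to 1.40. The group of 13 ER and Golgi genes thus held 2 rises and no fall. Rab1 (Rab1a), next outside the threshold at an adjusted p of 0.0509, measured 14.49 and 14.67 with the inhibitor, 0.48 (SE 0.08) above LPS. Rab4a differed by 0.87 (SE 0.17, adjusted p = 0.0608), while its second probe passed at 0.98 (SE 0.07, adjusted p = 0.0143).

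Several genes raised by LPS did not pass with the inhibitor. Rab20 differed by -0.27 with a 95% interval of -1.52 to 0.98 (-0.22 and -0.32 between arrays of the same replicate number), and Rab30 (5.87 and 4.99 with LPS, 4.95 and 5.69 with the inhibitor) by -0.11 with an interval of -1.25 to 1.02. These unpaired intervals reach about 1 log2 unit or more in either direction. Rab22a (11.75 and 11.56 with the inhibitor) had a narrower interval, from -0.40 to 0.26, as did Rab5a (12.65 and 12.64), from -0.29 to 0.02. Rab12 measured 12.82 and 12.96 with the inhibitor, -0.22 from LPS (SE 0.08, adjusted p = 0.213). Rab21 lay between the other groups at 9.09 and 9.11, by -0.53 from LPS (interval -0.84 to -0.23, adjusted p = 0.0719).

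These calls also rested on the spread estimated from all 3 groups. In a fit of the LPS and LPS+USP7i arrays alone, which is the same fit as one without either untreated array, no gene on the array passed in limma, Rab genes included (0 higher and 0 lower of 34786 names, smallest adjusted p of a Rab probe 0.0563). Rab32 passed without LPS replicate 1, LPS replicate 2 or LPS+USP7i replicate 2 (adjusted p = 0.0455, 0.0424 and 0.0477) but not without LPS+USP7i replicate 1 (0.0642). Without LPS replicate 1 there were 0 higher and 1 lower Rab gene (beside 1.49% and 2.27% of all names in that fit), and without LPS replicate 2 there were 1 and 1 (beside 1.56% and 2.02%). Without LPS+USP7i replicate 1 there were 2 and 1 (beside 3.32% and 1.7%), and without LPS+USP7i replicate 2 the counts stayed at 3 and 3 (beside 5.51% and 3.47%). As 1 of 57 is 1.75%, the counts without an LPS array or LPS+USP7i replicate 1 lie near those shares.

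Against untreated cells, LPS+USP7i cells had 4 Rab genes higher and 6 lower, where 6.16% of all names were higher and 8.77% lower (7.16% and 12.0% of RefSeq genes). Scaled to the 75th percentile the split was 16 and 9 (28.1% and 15.8%, beside 35% and 9.64% of all names). Without untreated replicate 1 it was 1 and 2 (beside 1.81% and 2.59% of all names in that fit), and without untreated replicate 2 it was 0 and 2 (beside 1.35% and 1.65%). Without LPS+USP7i replicate 1 it was 3 and 4 (beside 5.74% and 5.42%), and without LPS+USP7i replicate 2 it was 2 and 4 (beside 5.43% and 5.26%). Rab12 (1.17, adjusted p = 0.00708), Rab22a (1.13, adjusted p = 0.0141), Rab5a (0.34, adjusted p = 0.0349) and Rab30 (adjusted p = 0.0304) were higher, all of which had risen with LPS alone. With the replicate number as a block 3 Rab genes were higher (5.26%, beside 6.32% of all names), so not all of these 4 calls were kept. Rab40c (-1.94, adjusted p = 0.00574), Rab6b (-1.35, adjusted p = 0.00765), Rab14 (-1.0, adjusted p = 0.0079), Rab5c (-0.97, adjusted p = 0.0292), Rab31 (-0.77, adjusted p = 0.05 when rounded, just inside) and Rab7l1 (-0.73, adjusted p = 0.0451) were lower, and of these only Rab7l1 had not fallen with LPS alone. Rab20 measured 10.57 and 9.64 in LPS+USP7i cells and 7.95 and 7.62 in untreated cells, next to the threshold at 2.32 (SE 0.45, adjusted p = 0.0506). Rab38 (-0.22, adjusted p = 0.764) and Rab9 (0.05, adjusted p = 0.906) did not pass, nor did Rab32 (0.44, adjusted p = 0.0738). Scaled to the 75th percentile, Rab32 (0.66, adjusted p = 0.014) and Rab20 (2.32, adjusted p = 0.0128) were among 12 further genes higher, 5 further genes were lower, and Rab5c (-0.62, adjusted p = 0.0648) and Rab7l1 (-0.48, adjusted p = 0.0922) lost their calls. In all, 36 of the 57 genes passed in none of the 3 comparisons.

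Probes of one gene did not always give one answer. Each gene above stands for its brightest probe, and 21 of the 57 genes had 2 to 4 probes. Rab10, which serves exocytic recycling, gave 0.65 (adjusted p = 0.0593) from its brighter probe and 1.51 (adjusted p = 0.00698) from the other with LPS. Rab8b, whose brightest probe did not pass with LPS, had a second probe that rose by 1.07 (adjusted p = 0.0126). Rab8a and Rab5b likewise had 1 probe each that rose with LPS, by 0.47 (adjusted p = 0.039) and 0.85 (adjusted p = 0.0357), beside brighter probes that did not pass. Rab15, a recycling GTPase, had 7.98 and 9.17 with LPS and 10.83 and 11.01 with the inhibitor from its brighter probe (2.34, SE 0.54, adjusted p = 0.0902), and its dimmer probe rose by 0.58 (adjusted p = 0.0486). Which transcripts these probes detect was not tested.

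**Figure D3:**
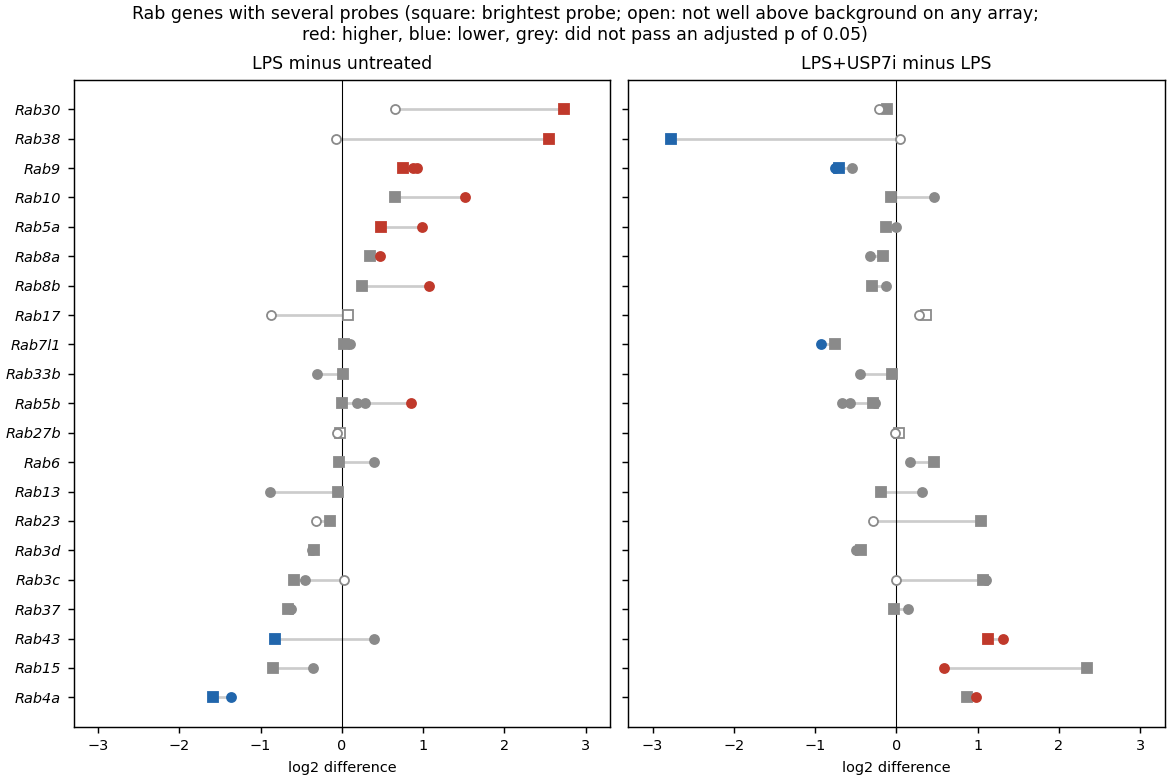
Log2 difference (x axis) of every probe of the 21 Rab genes with several probes, for LPS minus untreated (left) and LPS+USP7i minus LPS (right), with the probes of a gene joined by a line. The 3 Rab9 probes lie together, from 0.75 to 0.93 with LPS, and the Rab38 probes lie apart, with 1 of them near background on all 6 arrays.

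The regulators and effectors of Rab proteins were taken from a list of 116 genes found on the array, of which 14 rose and 35 fell with LPS (12.1% and 30.2%), and 16 rose and 16 fell with the inhibitor against LPS (13.8% each). Of RefSeq genes on the array 9.11% rose and 16.7% fell with LPS, and 6.86% rose and 5.24% fell with the inhibitor. With dim probes left out, 17.9% of 106 list genes rose and 35.8% fell with LPS, beside 17.2% and 28.1% of all names. With the inhibitor the list then gave 19.8% and 22.6%, beside 15% and 13%. The share of rises with LPS was thus near that of all names in that setting. With LPS, GEFs gave 7 rises and 10 falls of 35, GAPs 3 and 12 of 35, effectors 4 and 10 of 39, and the GDI and prenylation genes 0 and 3 of 7. The medians of the whole list were -0.26 and -0.06. Under 75th-percentile scaling 23.3% of the list rose with LPS, below the 34.9% of all names, whereas its 12.1% in the quantile-normalized values lies above the 7.99% of all names. With LPS the list gave 8 calls higher and 18 lower without untreated replicate 1 (6.9% and 15.5%, beside 3.95% and 5.78% of all names) and 8 and 16 without untreated replicate 2 (6.9% and 13.8%, beside 3.27% and 4.73%). It gave 6 and 19 without LPS replicate 1 (5.17% and 16.4%, beside 5.42% and 5.91%) and 7 and 25 without LPS replicate 2 (6.03% and 21.6%, beside 6.13% and 7.35%), so that without either LPS array the share of rises was near that of all names. With the inhibitor it gave 0 and 0 without either untreated array, where no gene on the array passed. It gave 6 and 2 without either LPS array (5.17% and 1.72%, beside 1.49% and 2.27%, and 1.56% and 2.02%), and 6 and 4 without LPS+USP7i replicate 1 (5.17% and 3.45%, beside 3.32% and 1.7%).

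Among the GEFs that act on Rab3 and Rab8 family members, Rab3il1 fell with LPS, from 14.07 and 13.96 to 9.64 and 9.88 (-4.25, SE 0.20, adjusted p = 0.00326), and Rab3ip (Rabin8) rose, from 8.67 and 8.94 to 11.25 on both arrays (2.44, SE 0.26, adjusted p = 0.00988). Rin3, a GEF of the Rab5 family, measured 4.43 and 3.87 in untreated, 7.54 and 7.55 in LPS and 4.54 and 4.75 in LPS+USP7i cells, so that it rose with LPS (adjusted p = 0.00445) and fell with the inhibitor (adjusted p = 0.0147). It was well above background on 1 of 2 untreated, both LPS and 1 of 2 LPS+USP7i arrays, so no fold is given. Dennd3, a GEF of Rab12, was detected only on the LPS arrays and the inhibitor lowered its signal at least 2.34-fold (adjusted p = 0.0225). Dennd2c, another GEF, was detected in untreated and LPS+USP7i cells but not with LPS, at least 5.34-fold lower with LPS (adjusted p = 0.00332) and at least 3.27-fold higher with the inhibitor (adjusted p = 0.0121).

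Rab11fip1, a Rab11 effector in recycling, rose with LPS from 4.16 and 4.54 to 9.14 and 9.11 (adjusted p = 0.00373), where 1 of the 2 untreated arrays was not well above background, and measured 8.08 and 8.70 with the inhibitor. Tbc1d2, a GAP of Rab7, measured 12.12 and 12.19 in untreated, 8.05 and 8.40 in LPS and 10.56 and 10.29 in LPS+USP7i cells, a fall of -3.93 (adjusted p = 0.00302) and a rise of 2.20 with the inhibitor (SE 0.17, adjusted p = 0.0147). Tbc1d1, a GAP studied in glucose transporter traffic, fell with the inhibitor from 13.58 and 13.67 to 11.44 and 11.97 (-1.92, SE 0.21, adjusted p = 0.0223). Micall1, a scaffold of recycling tubules that binds Rab8 and Rab35, rose with it from 9.19 and 9.12 to 11.43 and 11.14 (2.13, SE 0.19, adjusted p = 0.0169). The GDI and prenylation genes that fell with LPS were Gdi2 (-0.67, adjusted p = 0.00699), Rabac1 (-0.65, adjusted p = 0.0148) and Rabggta (-0.95, adjusted p = 0.0304), named after their values were seen, as were Gdi2 (0.40, adjusted p = 0.0365) and Rabggtb (0.73, adjusted p = 0.0331), which rose with the inhibitor.

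**Figure D4:**
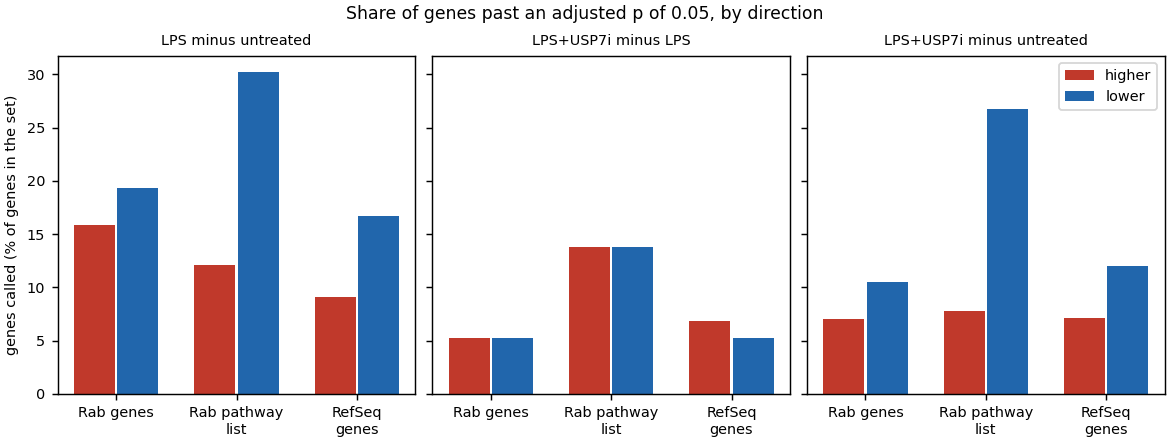
Share of genes (y axis, percent of each set) called higher or lower at an adjusted p under 0.05 in each comparison, for the 57 Rab genes, the 116 genes of the Rab pathway list and all RefSeq genes on the array. With the inhibitor against LPS the Rab genes stand at 5.26% in each direction, and the pathway list at 13.8%.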

How the data were processed

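Agilent 1-color mouse arrays (Cy3) were read by the authors with Feature Extraction 10.7.3.1 (mm9 design), and the deposited scanner files give the processed spot intensity, corrected for background. The authors' deposited value table holds log2 values, quantile-normalized in limma by the methods of the study, and was used as an alternative. Its background correction and centring are not described (column medians 5.03 to 5.06), and it correlated with the values used here at 0.9971 to 0.9977. Here the log2 intensity was quantile-normalized over non-control spots, outlier spots were set missing, spots of a probe were averaged, and limma 3.58.1 (R 4.3.3; lmFit, eBayes) was fitted to all 6 arrays and 3 groups, with Benjamini-Hochberg adjustment over 55680 probes and a threshold of 0.05. A gene is its probe of highest mean signal. Probes were named through RefSeq by accession (78 of 82 Rab probes), symbol (3) or synonym (1). The 2 arrays of a group came from independent experiments per the series description, their number limits precision, and an exact permutation test of 2 against 2 cannot go below 0.333. The Rab genes, role groups, regulator list and cell markers were chosen with earlier results of these data known. Named were Rab20, Rab32, every Rab gene called with LPS or inhibitor, the 3 of highest mean signal (Rab8b, Rab1 and Rab5c), those nearest the threshold, and the 3 largest rises and falls of the regulator list. Genes named beyond this rule were chosen after their values were seen. Alternatives changed scaling, background correction, dim and outlier spots, the variance prior, the groups fitted, the probe rule, a replicate block and single arrays.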

Additional observations from a re-analysis of the deposited data

How the results depend on the processing

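Counts are Rab genes called higher and lower, with the share of all names called under the same setting in parentheses. With LPS, 75th-percentile scaling gave 18 higher (34.9%), and both the deposited values (8.89%) and the fit of the 2 groups (11.5%) gave 7 lower. With the inhibitor against LPS, normexp background correction gave 6 and 7 of 57 (8.2% and 6.9%). Leaving out dim probes also gave 6 and 7, but of 48 genes tested (12.5% and 14.6%, beside 15% and 13%). The trended prior (5.75%) and counting any probe of a gene (6.33%) gave 5 higher, and the fit of the 2 groups gave 0 and 0, as for all names. Against untreated cells, LPS+USP7i gave 16 higher with 75th-percentile scaling (35%), 7 and 11 with normexp (7.84% and 11.6%), 8 and 12 of 48 without dim probes (16.7% and 25%, beside 15.3% and 21.4%), and 7 higher with any probe (7.46%). In the regulator list of 116, 75th-percentile scaling gave 27 higher with LPS (23.3%, beside 34.9%), so that the list went from above to below the share of all names. With the inhibitor the list gave 28 lower under normexp (24.1%, beside 6.9%), 10 higher from the deposited values (8.62%, beside 3.86%), and 0 and 0 in the fit of the 2 groups. Leaving out 1 array at a time gave 2 to 9 higher and 4 to 7 lower Rab genes with LPS, 0 to 3 and 0 to 3 with the inhibitor, and 0 to 4 and 2 to 5 against untreated (all names 3.27% to 7.4% and 4.73% to 11.5%, 0% to 5.51% and 0% to 3.47%, and 1.35% to 5.74% and 1.65% to 5.69%), and for the list 6 to 15 and 16 to 31 with LPS and 0 to 13 and 0 to 12 with the inhibitor. Over all 57 genes, 75th-percentile scaling turned the sign of 10 differences with LPS, 3 with the inhibitor and 5 against untreated, none of a called gene, and 1 of them, Rab9b with LPS (0.64), was then called. Among the Rab genes named by rule, Rab26 (0.17) and Rab8b (0.32) turned sign in LPS+USP7i against untreated cells under 75th-percentile scaling. With LPS, or with the inhibitor against LPS, the sign turned for the following genes named by rule. Under 75th-percentile scaling they were Rab1 with LPS (0.41) and Rab30 with the inhibitor (0.06). Rab26 turned with LPS under normexp and from the deposited values (0.02 in both), and with the inhibitor from the deposited values (-0.04). With the inhibitor, Rab20 (0.14), Rab30 (0.33) and Rab22a (0.04) turned without LPS replicate 1. So did Rab30 (0.26) without LPS+USP7i replicate 1, and Rab20 (0.19) and Rab22a (0.03) without LPS+USP7i replicate 2. Their lowest values without 1 array were -0.73, -0.56 and -0.19 for Rab20, Rab30 and Rab22a. Deviations of same-numbered arrays correlated at 0.47, 0.42 and 0.40 over 20705 probes, so these arrays deviated together in each pair of groups. The main fit leaves this out, and the labels do not say that a number marks one experiment. The number also follows 1 coordinate of the array on the slide, and these cannot be told apart. Summed markers of B cells, T and NK cells, mast cells and dendritic cells were each higher in replicate 1 of each group. Those of macrophages, neutrophils and fibroblasts were not higher there in every group. With the replicate block the Rab counts were 8 and 8 with LPS (8.42% and 13.4%), 2 and 2 with the inhibitor (3.51% each, beside 4.05% and 3.25%) and 3 and 6 against untreated (6.32% and 9.49%), and the list gave 15 and 35, and 11 and 15. Rab26 has no value without dim probes. The cause of these changes was not tested.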

Other observations

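2 further Rab genes are on the array under other names and were outside the 57. Rab7b, a GTPase of late endosomes that has been linked to the traffic of TLR4 in macrophages, measured 14.46 and 14.58 log2 units in untreated, 11.14 and 11.29 in LPS and 13.94 and 13.71 in LPS+USP7i cells. It fell with LPS by -3.3 (SE 0.12, adjusted p = 0.00264) and rose with the inhibitor against LPS by 2.61 (SE 0.12, adjusted p = 0.0104), and with the inhibitor it remained below untreated cells by -0.70 (adjusted p = 0.0358). The LPS arrays were lowest, the untreated arrays highest and no groups overlapped. Rab42, which the files list as a pseudogene, was well above background in untreated cells alone (6.53 and 6.64) and was at least 4.28-fold lower with LPS (adjusted p = 0.0236).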
